A study of Rattus norvegicus with 12 samples.

Results

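Livers of rats given the highest dose of A-998679, 200 mg/kg, were compared with livers of vehicle rats across the whole array. The members of the comparison were all probe sets, the groups of short probes that report one transcript each, with a value in all 6 arrays: 21907 of the 29176 probe sets on the array. Of these, 15580 carried 1 gene symbol, for 11367 genes. Male Sprague Dawley rats received vehicle or A-998679 at 30, 100 or 200 mg/kg by oral gavage once daily for 5 days, with 3 rats per group and 1 Affymetrix RAE230 2.0 array per liver. The vehicle, 0.2% HPMC (a cellulose derivative that keeps powders in suspension) at 10 ml/kg, was given to the control rats and carried the compound in the others, and all rats were fasted overnight after the last dose. For the top dose, the titles of the samples say 200 mg/kg and their descriptions say 300 mg/kg, and the titles were followed here. The labels give body weights of 176 to 200 g, lower than the starting weight stated in the paper. They name no litter, cage or processing batch, and the paper states that the rats were housed singly.

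The liver clears foreign compounds in stages. Oxidizing enzymes such as the cytochromes P450 add or expose a reactive group, conjugating enzymes join it to glutathione, glucuronate or sulfate, and carriers in the cell membrane export the product. The conjugating stage draws on NADPH, glutathione and UDP-glucuronate, which are made by enzymes of intermediary metabolism. The aryl hydrocarbon receptor (AhR), which controls the Cyp1 genes, and Nrf2, a regulator of genes for glutathione and quinone metabolism, are known for changing this machinery when a compound reaches the liver.

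The values are log2 levels, obtained from deposited log10 intensities, so a difference of 1 is a doubling. The 7269 probe sets left out were mostly dim: values in probe sets with an empty value had a median log2 level of 2.67, against 5.62 in the others. Array medians lay between 5.21 and 5.26 on the log2 scale. Across probe sets, which are not independent replicates, arrays of the same group correlated at 0.907 to 0.930 (6 pairs) and arrays of different groups at 0.899 to 0.927 (9 pairs). Among the 6, the array of vehicle rat 3 stood apart: its 5 correlations with the other arrays were 0.899 to 0.908, and the 10 among the other arrays were 0.920 to 0.930. Without it, 15 probe sets were called higher and 7 lower, in place of the 27 and 21 described next. The loss was not particular to this array: 19 and 6 were called without vehicle rat 1, and 13 and 10 without vehicle rat 2. The median standard error of a log2 fold change was 0.27 and its 95% interval reached a median of 0.59 to either side.

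The 3 largest called changes at 200 mg/kg were rises, in the glutathione transferase gene *Gsta3* (31.5-fold), the aldehyde reductase gene *Akr7a3* (12.7-fold) and the glucuronate pathway gene *Cryl1* (8.14-fold). The largest falls were those of a probe set without a symbol (5.91-fold), the phosphate carrier gene *Slc34a2* (5.89-fold) and the steroid hydroxylase gene *Cyp17a1* (3.02-fold). In all, 48 probe sets were called (limma, 2-sided, Benjamini-Hochberg adjusted p under 0.05), 0.219% of those tested. Of these, 27 were higher (0.123%) and 21 were lower (0.0959%), a split of 56.3% higher that became 67.4% (31 higher and 15 lower) after quantile normalization. They stood for 25 genes that rose and 16 genes that fell, and 5 probe sets had no single symbol. With 1 probe set per gene, 24 genes were called higher (0.211%) and 15 lower (0.132%).

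Most of the transcriptome moved little. The median log2 fold change over all 21907 probe sets was 0.00, the 5th and 95th percentiles were -0.79 and 0.79, and 83.7% changed by less than 1.5-fold. At least a doubling was seen for 664 probe sets and at least a halving for 691, of which 14 and 9 were called. Of the 1332 that were not called, 1211 (90.9%) lay below the median level of all probe sets, as the plot of fold change against level shows. Without adjustment, 1075 probe sets were higher (4.91%) and 1016 were lower (4.64%) at p under 0.05. The 3 treated rats lay above all 3 vehicle rats in 1746 probe sets (7.97%) and below all 3 in 1600 (7.3%), and all 48 called probe sets were among these.

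**Figure D1:**
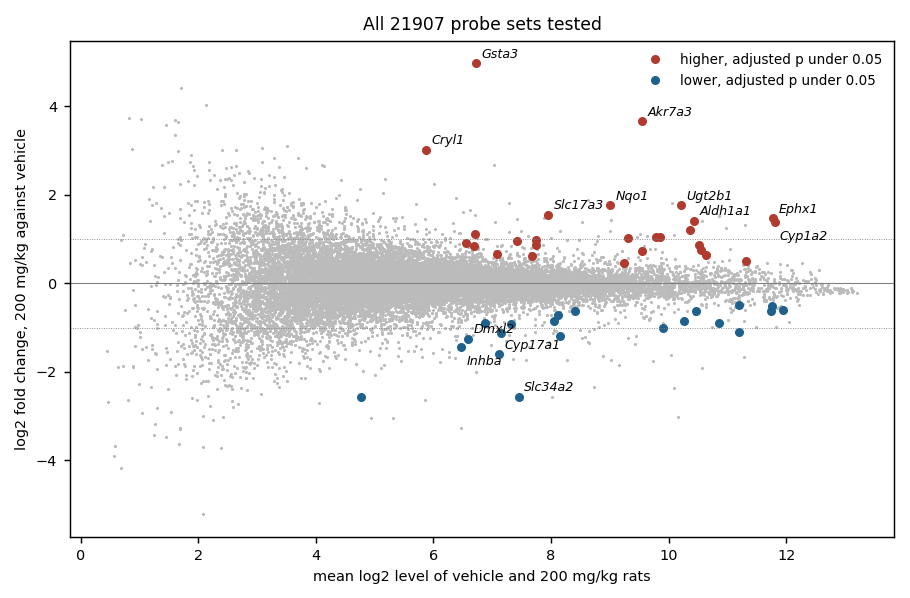
Log2 fold change at 200 mg/kg against vehicle (vertical axis) plotted against the mean log2 level of the 6 rats (horizontal axis) for the 21907 probe sets tested. Red and blue points are the 27 probe sets called higher and the 21 called lower, grey points are the rest, and dotted lines mark a doubling and a halving. *Gsta3* stands alone at 4.98, and the called probe sets lie mostly at levels where the grey cloud is narrow.

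*Gsta3*, an alpha class glutathione transferase, showed the largest called rise. Its log2 level was 4.34, 3.98 and 4.41 in the 3 vehicle rats and 9.49, 9.46 and 8.70 in the 3 rats at 200 mg/kg. The vehicle rats were near the dim end of the array and the treated rats were well within its range. The log2 fold change was 4.98 ± 0.32 (SE, n = 3 and 3; adjusted p = 1.9e-05, limma), with a 95% interval of 19.6 to 50.7 for the fold. *Akr7a3*, which encodes an aldo-keto reductase known for reducing aflatoxin dialdehyde, read 7.59, 7.69 and 7.87 in vehicle rats and 12.04, 11.05 and 11.05 in treated rats. Rat 1 was about a log2 unit above the others, and the groups were far apart. The rise was 3.66 ± 0.35 on the log2 scale (adjusted p = 0.00093). *Cryl1*, the gene for L-gulonate dehydrogenase of the glucuronate pathway, read 3.79, 5.28 and 4.00 in vehicle rats against 8.11, 7.23 and 6.80 in treated rats. Vehicle rat 2 stood above the other vehicle rats, without reaching the treated ones. Its log2 fold change was 3.03 ± 0.41 (adjusted p = 0.0079).

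*Ephx1*, the microsomal epoxide hydrolase, was among the brightest genes that rose, at 11.05, 11.16 and 10.89 in vehicle rats and 12.65, 12.37 and 12.49 in treated rats. The spread within each group was small beside the gap. The log2 fold change was 1.47 ± 0.14 (adjusted p = 0.00093). *Nqo1*, a quinone reductase, read 8.30, 7.56 and 8.49 in vehicle rats and 10.40, 9.52 and 9.73 in treated rats, a rise of 1.77 ± 0.24 (adjusted p = 0.0081). *Akr7a2*, a relative of *Akr7a3* that reduces other aldehydes, rose by 0.73 ± 0.10 (adjusted p = 0.011). Thus 4 of the 20 epoxide hydrolase, aldo-keto and carbonyl reductase genes tested rose and none fell. Of all genes, 0.211% were called higher and 0.132% lower.

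The windows around the transcription starts of the 5 genes with the smallest p in the main fit (limma), *Gsta3*, *Akr7a3*, *Ephx1*, *Csrp1* and *Dap*, are shown. *Csrp1* was the only one of them that fell. The sequences are those of RefSeq on GRCr8, written 5′ to 3′ on the gene's strand, with 250 bases before and 50 after the annotated start; *Gsta3* and *Ephx1* each have 2 such starts. Capitals mark GCGTG, the core of the xenobiotic response element that AhR binds, and TGACNNNGC, the antioxidant response element that Nrf2 binds, on either strand. In these windows the 2 motifs did not overlap.
Gsta3, start 1, GRCr8 chr9:31154739-31155038, plus strand: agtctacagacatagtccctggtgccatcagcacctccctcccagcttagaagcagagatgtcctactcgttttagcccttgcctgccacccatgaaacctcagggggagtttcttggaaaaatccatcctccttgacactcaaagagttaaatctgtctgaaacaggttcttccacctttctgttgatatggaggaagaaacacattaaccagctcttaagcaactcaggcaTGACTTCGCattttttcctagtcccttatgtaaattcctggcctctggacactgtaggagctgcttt
Gsta3, start 2, GRCr8 chr9:31166793-31167092, plus strand: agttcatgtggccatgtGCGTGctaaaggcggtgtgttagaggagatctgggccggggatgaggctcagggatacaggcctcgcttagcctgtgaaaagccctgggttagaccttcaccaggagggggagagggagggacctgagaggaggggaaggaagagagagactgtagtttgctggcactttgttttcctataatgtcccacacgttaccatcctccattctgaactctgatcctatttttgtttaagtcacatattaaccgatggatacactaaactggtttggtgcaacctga
Akr7a3, GRCr8 chr5:156876471-156876770, plus strand: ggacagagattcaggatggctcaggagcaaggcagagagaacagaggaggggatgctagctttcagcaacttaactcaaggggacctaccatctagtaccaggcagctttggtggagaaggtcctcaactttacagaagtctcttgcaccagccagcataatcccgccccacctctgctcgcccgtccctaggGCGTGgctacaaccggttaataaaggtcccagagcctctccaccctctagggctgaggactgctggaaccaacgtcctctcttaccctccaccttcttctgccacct
Ephx1, start 1, GRCr8 chr13:95275803-95276102, minus strand: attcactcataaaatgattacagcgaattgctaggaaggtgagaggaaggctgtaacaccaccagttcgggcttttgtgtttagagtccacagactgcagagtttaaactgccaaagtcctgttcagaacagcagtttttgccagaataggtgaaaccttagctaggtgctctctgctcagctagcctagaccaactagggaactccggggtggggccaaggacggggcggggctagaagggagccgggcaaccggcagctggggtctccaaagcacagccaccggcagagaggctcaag
Ephx1, start 2, GRCr8 chr13:95263068-95263367, minus strand: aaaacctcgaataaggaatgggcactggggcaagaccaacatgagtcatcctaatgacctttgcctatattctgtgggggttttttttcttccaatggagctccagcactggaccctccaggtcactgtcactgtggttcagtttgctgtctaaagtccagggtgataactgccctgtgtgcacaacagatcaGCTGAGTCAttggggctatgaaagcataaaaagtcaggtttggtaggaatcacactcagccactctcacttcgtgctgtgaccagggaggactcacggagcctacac
Csrp1, GRCr8 chr13:49709678-49709977, plus strand: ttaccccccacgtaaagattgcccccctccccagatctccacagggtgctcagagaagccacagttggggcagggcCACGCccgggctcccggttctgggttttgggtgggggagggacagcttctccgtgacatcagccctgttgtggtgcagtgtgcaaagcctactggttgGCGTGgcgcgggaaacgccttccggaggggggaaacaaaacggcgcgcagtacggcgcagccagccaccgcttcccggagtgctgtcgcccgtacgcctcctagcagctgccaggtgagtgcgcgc
Dap, GRCr8 chr2:83909863-83910162, plus strand: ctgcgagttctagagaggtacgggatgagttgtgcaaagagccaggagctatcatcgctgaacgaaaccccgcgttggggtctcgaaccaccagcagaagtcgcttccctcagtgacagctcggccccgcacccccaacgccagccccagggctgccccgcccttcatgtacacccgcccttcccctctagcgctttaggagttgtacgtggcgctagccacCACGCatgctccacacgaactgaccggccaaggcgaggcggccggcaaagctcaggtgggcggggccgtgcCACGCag

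Of the 41 called genes with a symbol, 34 had at least 1 such window, 39 windows in all. GCGTG was present in 12 of the 23 windows of genes that rose (52.2%), in 9 of the 16 windows of genes that fell (56.2%) and in 29.7% of all 33469 windows in the table. TGACNNNGC was present in 5 of the 23 (21.7%), in 2 of the 16 (12.5%) and in 12.1% of all windows. A match says only that these letters occur in the window. The first *Gsta3* window and the second *Ephx1* window each held 1 antioxidant response element, the second *Gsta3* window and the *Akr7a3* window each held 1 GCGTG, and the *Csrp1* and *Dap* windows each held 2.

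Glucuronidation had 3 called genes of 12 tested, and all 3 rose, where 0.211% of all genes were called higher. *Ugdh*, which makes UDP-glucuronate from UDP-glucose, read 9.67, 9.74 and 9.87 in vehicle rats and 11.25, 10.81 and 10.86 in treated rats, with no overlap. Its log2 fold change was 1.21 ± 0.14 (adjusted p = 0.0026). *Ugt2b1*, a UDP-glucuronosyltransferase, read 9.28, 9.07 and 9.60 against 11.26, 10.79 and 11.21, a rise of 1.77 ± 0.30 (adjusted p = 0.035). The third was *Cryl1*. *Entpd5*, an enzyme of the endoplasmic reticulum that hydrolyses the UDP released by glycosyl transfer, rose by 1.03 ± 0.16 (adjusted p = 0.021). This was 1 of its 3 probe sets, and the others were not called. In the opposite direction, both probe sets of *Gulo*, the last enzyme of ascorbate synthesis from glucuronate, fell. The larger change was from 10.66, 10.57 and 10.80 to 9.58, 9.90 and 10.02, or -0.85 ± 0.13 on the log2 scale (adjusted p = 0.021), and the other was -0.63 (adjusted p = 0.0495). Treated rat 1 was the lowest in both. *Ugp2*, which makes UDP-glucose, and *Ugt2a1* stood at 0.77 and 1.19 with adjusted p of 0.13 and 0.11. The other members, among them *Ugt2b15* (0.10) and *Dcxr* (-0.01), lay between -0.12 and 0.20.

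Among the 18 glutathione transferase genes tested, 2 rose, *Gsta3* and *Mgst2*, and none fell. Over all genes, 0.211% were called higher and 0.132% lower. *Mgst2*, a microsomal transferase, read 9.03, 9.23 and 9.53 in vehicle rats and 10.51, 9.99 and 10.44 in treated rats. The groups were separated by less than 1 log2 unit, and the rise was 1.05 ± 0.14 (adjusted p = 0.0089). The list median was 0.44, against 0.01 over all genes, and 14 of the 18 were above vehicle. At an unadjusted p under 0.05, 11 of 18 were higher, where 6.14% of all genes were higher and 5.08% lower by the same rule. *Gstt3* stood at 1.42 (adjusted p = 0.075), *Gstm1* at 0.46 (0.090) and *Gstt1* at 1.38 (0.11). *Mgst3*, *Gstm7*, *Mgst1* and *Gstz1* had values between -0.24 and -0.07. Of the glutathione synthesis and thiol redox genes, *Gsr*, the glutathione reductase, was the one called of 14, at 0.96 ± 0.17 (adjusted p = 0.0495), with 7.09, 6.85 and 6.87 in vehicle rats and 8.31, 7.69 and 7.68 in treated rats. *Gclm*, the regulatory subunit of the rate-limiting enzyme of glutathione synthesis, stood at 0.59 and *Txnrd1*, thioredoxin reductase, at 0.58, both with an adjusted p of 0.19.

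*Me1*, the cytosolic malic enzyme, which yields NADPH, read 7.14, 7.30 and 7.29 in vehicle rats and 8.61, 8.04 and 8.06 in treated rats, a rise of 0.99 ± 0.15 (adjusted p = 0.015). It was the one called gene of 10 in the NADPH and pentose phosphate list, in which *Tkt*, transketolase, stood at 0.97 (adjusted p = 0.085). The other *Me1* probe set was not called against vehicle. *Aldh1a1*, which oxidizes retinaldehyde and other aldehydes, read 9.73, 9.94 and 9.51 against 11.19, 11.27 and 10.99. The rise was 1.42 ± 0.18 (adjusted p = 0.0051). *Aldh1l1*, a folate enzyme that uses an aldehyde dehydrogenase domain, rose by 0.86 ± 0.12 (adjusted p = 0.011). These were the 2 called of 17 aldehyde and alcohol dehydrogenase genes, where 0.211% of all genes were called higher. *Aox1*, aldehyde oxidase, stood at 1.25 (adjusted p = 0.28).

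Carriers moved in both directions. *Slc17a3*, an organic anion and urate carrier, read 7.46, 7.18 and 6.87 in vehicle rats and 9.43, 8.62 and 8.14 in treated rats, a rise of 1.56 ± 0.26 (adjusted p = 0.034). *Abcb1a*, one of the genes of the P-glycoprotein efflux pump, read 6.28, 5.87 and 6.28 against 7.55, 7.05 and 7.18 (log2 fold change 1.12 ± 0.16, adjusted p = 0.013). Its second probe set gave 1.13 (adjusted p = 0.056), and a probe set shared by *Abcb1a* and *Abcb1b* gave 0.92 (adjusted p = 0.032). *Slc16a1*, the monocarboxylate carrier for lactate and ketone bodies, fell from 10.50, 10.40 and 10.34 to 9.62, 9.20 and 9.39 (-1.01 ± 0.13, adjusted p = 0.0045). *Slc34a2*, a sodium-dependent phosphate carrier, read 9.50, 8.77 and 7.93 in vehicle rats and 6.11, 6.36 and 6.06 in treated rats. The vehicle rats were spread over more than a log2 unit and the treated rats were close together. Its log2 fold change was -2.56 ± 0.32 (adjusted p = 0.0045). Of the remaining 16 efflux pump genes none was called, nor were the other 21 uptake carriers, where *Slc22a8*, an organic anion carrier, stood at -1.37 (adjusted p = 0.085) and *Slc22a7* at -0.47 (0.11).

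The other genes that rose had diverse roles and mostly smaller changes. *Dap*, a death-associated protein gene, had tight groups, at 10.14, 10.20 and 10.15 against 10.98, 10.86 and 10.95, and rose by 0.77 ± 0.08 (adjusted p = 0.0017). *Kxd1*, a component of a complex that positions lysosomes, rose by 0.88 ± 0.12 (adjusted p = 0.0073), from 7.28, 7.29 and 7.32 to 8.38, 8.05 and 8.10. *Reep6*, which shapes the endoplasmic reticulum, rose by 1.05 (adjusted p = 0.022) in 1 of its 2 probe sets. *Selenbp1* (0.63, adjusted p = 0.015) encodes a methanethiol oxidase, and *Pabpc4* (0.46, adjusted p = 0.021) a cytoplasmic poly(A)-binding protein. A second *Pabpc4* probe set was not called. The smallest group of changes also held *Tmem205* (0.51), *Mrpl57* (0.62), a subunit of the mitochondrial ribosome, and *Atp5if1* (0.65), the inhibitor of ATP synthase, with adjusted p of 0.046, 0.034 and 0.044. Other probe sets of *Mrpl57* and *Atp5if1* did not show the same change: *Mrpl57* had 1 more, at 0.00, and *Atp5if1* had 2 more, both dim, at 1.10 and -1.27.

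Among the genes that fell, *Cyp17a1*, the steroid hydroxylase of androgen synthesis, read 7.80, 8.27 and 7.67 in vehicle rats and 5.96, 6.93 and 6.07 in treated rats. Treated rat 2 was nearest to the vehicle rats. The log2 fold change was -1.59 ± 0.28 (adjusted p = 0.042). It was the one called of 24 steroid and retinoid genes, where 0.132% of all genes were called lower. In the same list *Sts*, steroid sulfatase, stood at -0.54 (adjusted p = 0.11). *Inhba*, a subunit of activin, read 7.37, 7.26 and 6.94 against 5.76, 6.06 and 5.45 (-1.43 ± 0.21, adjusted p = 0.014), while its second probe set gave -0.06. *Inhbc*, a related subunit gene expressed in hepatocytes, stood at -1.02 (adjusted p = 0.056). *Crem*, a transcription factor of the cyclic AMP response, fell in 2 of its 5 probe sets, at -1.19 ± 0.19 (adjusted p = 0.022) and -0.91 ± 0.16 (adjusted p = 0.041). The first read 8.68, 8.63 and 8.94 in vehicle rats and 7.48, 7.81 and 7.39 in treated rats.

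*Apoa4*, an apolipoprotein of triglyceride-rich particles, fell from 11.78, 11.63 and 11.80 to 10.67, 10.74 and 10.53 (-1.09 ± 0.13, adjusted p = 0.0031). *Fga*, the fibrinogen alpha chain, fell in 1 probe set, to -0.89 on the log2 scale (adjusted p = 0.035), and its brighter probe set stood at -0.22. *Afm*, a plasma carrier of vitamin E, fell from 11.98, 12.05 and 12.12 to 11.29, 11.54 and 11.49 (-0.61 ± 0.10, adjusted p = 0.022). *Ldha*, the lactate dehydrogenase A subunit, read 12.37, 12.15 and 12.24 against 11.68, 11.73 and 11.51 (-0.61 ± 0.09, adjusted p = 0.014). *Hao1*, glycolate oxidase, showed the smallest fall, -0.49 ± 0.08 (adjusted p = 0.035). *Csrp1*, a LIM domain protein of the cytoskeleton, fell from 8.52, 8.42 and 8.49 to 7.68, 7.64 and 7.54 (-0.86 ± 0.09, adjusted p = 0.0014). *Dmxl2*, which takes part in vesicle acidification, fell from 7.35, 7.16 and 7.13 to 5.916, 5.998 and 5.978 (-1.25 ± 0.14, adjusted p = 0.0019). *Zmiz2*, a transcriptional coactivator gene, and *Ttyh2*, a tweety family membrane protein gene, fell, with log2 fold changes of -0.90 (adjusted p = 0.0495) and -0.63 (adjusted p = 0.042). *Trappc5*, part of a vesicle tethering complex, fell by 1.11 (adjusted p = 0.047), but its other 2 probe sets read 0.01 and -0.30.

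**Figure D2:**
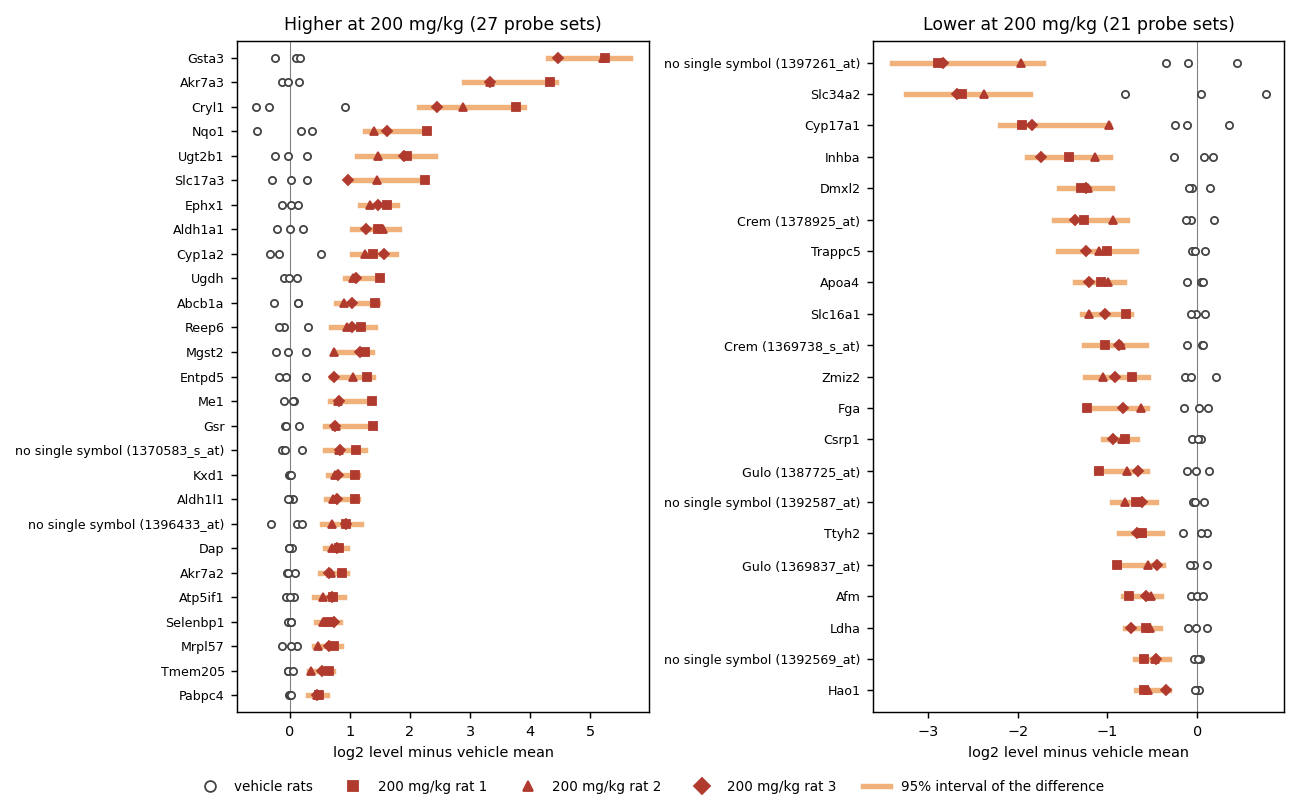
Log2 level minus the vehicle mean (horizontal axis) for each rat and each of the 48 called probe sets (rows), those higher on the left and those lower on the right. Open circles are vehicle rats, red squares, triangles and diamonds are rats 1, 2 and 3 at 200 mg/kg, and the orange bar is the 95% interval of the difference. No treated rat overlaps a vehicle rat in any row, and rat 1 lies furthest from vehicle in most of the rises.

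Treated rat 1 had the highest level in 23 of the 27 probe sets that rose, and treated rat 2 the lowest in 18. Among the 21 that fell, rat 1 was the lowest in 10. With each of the 6 rats left out in turn, 16 of the 48 calls held in all 6 fits. These were the rises of *Gsta3*, *Akr7a3*, *Cryl1*, *Nqo1*, *Ephx1*, *Aldh1a1*, *Cyp1a2*, *Ugdh*, *Mgst2*, *Kxd1* and *Dap* and the falls of *Slc34a2*, *Dmxl2*, *Apoa4*, *Slc16a1* and *Csrp1*. The other 32 kept their direction and lost the call in at least 1 fit, with highest adjusted p of 0.058 to 0.19. For 6 of them, *Atp5if1*, *Ttyh2*, *Zmiz2*, *Trappc5*, 1 of the *Crem* probe sets and 1 probe set without a symbol, no fit with 5 rats held the call. Without vehicle rat 1, 2 or 3, 22, 18 and 18 of the 48 calls held, and without treated rat 1, 2 or 3, 24, 33 and 33. With all values below the 25th percentile raised to it, 20 of the 48 held, *Gsta3*, *Akr7a3*, *Ephx1*, *Aldh1a1*, *Cyp1a2*, *Ugdh* and *Slc34a2* among them, while *Cryl1* (adjusted p = 0.055) and *Nqo1* (adjusted p = 0.058) did not.

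The levels of the called probe sets at the lower doses are given side by side as a description. The probe sets were chosen by their difference at 200 mg/kg, which favours the largest values at that dose, and all doses are set against the same 3 vehicle rats, which favours the same side of vehicle at every dose. Over the 27 probe sets that rose, the median differences from vehicle were 0.28, 0.56 and 1.03 for the low, middle and top dose. Over the 21 that fell, it was -0.35, -0.35 and -0.90. *Gsta3* stood at 1.62, 3.60 and 4.98, and *Akr7a3* at 0.39, 2.16 and 3.66. *Ephx1* stood at -0.06, 0.59 and 1.47. *Cyp1a2*, one of the AhR targets, stood at 1.17, 1.51 and 1.40. *Dmxl2* stood at -1.09, -0.28 and -1.25.

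**Figure D3:**
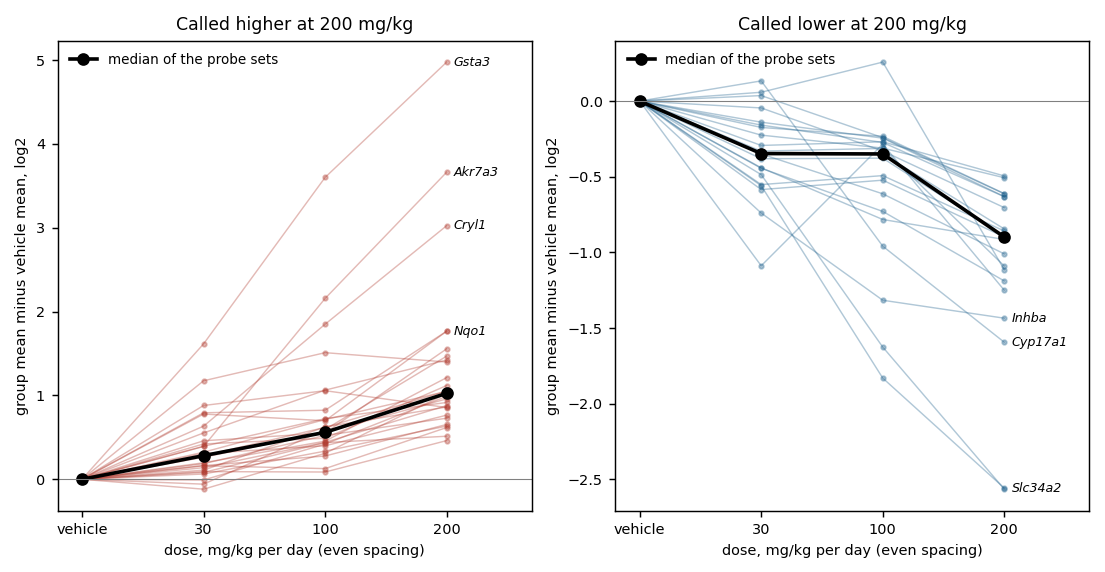
Group mean minus vehicle mean on the log2 scale (vertical axis) at vehicle, 30, 100 and 200 mg/kg (horizontal axis, evenly spaced) for the probe sets called higher (left) and lower (right) at 200 mg/kg, 1 line each. The black line is the median, at 0.28, 0.56 and 1.03 on the left and -0.35, -0.35 and -0.90 on the right, and the values at 200 mg/kg chose the probe sets.

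Compared directly with 30 mg/kg, 9 of 21874 probe sets were called at 200 mg/kg (0.0411%), 8 higher and 1 lower. These were *Gsta3* (3.36 ± 0.32, adjusted p = 0.0011), *Akr7a3* (3.27 ± 0.35, adjusted p = 0.0032), *Ephx1* (1.53 ± 0.14, adjusted p = 0.0011), *Ugdh* (1.02), *Entpd5* (1.14), both probe sets of *Me1* (1.00 and 1.33), *Afm* (-0.65) and *Acsm2* (3.83 ± 0.58, adjusted p = 0.045). *Acsm2*, which activates medium-chain fatty acids, was not called against vehicle (1.90, adjusted p = 0.27), and its vehicle rats lay between both groups. It read 5.65, 5.84 and 5.75 at 30 mg/kg, 8.21, 7.72 and 7.12 in vehicle rats, and 10.27, 8.61 and 9.85 at 200 mg/kg. Against 100 mg/kg, none of 21886 probe sets was called (0.0%; limma), although without adjustment 654 were higher and 690 lower at p under 0.05 (6.14% in either direction). The smallest adjusted p was 0.14, for *Trappc5* and *Dmxl2*.

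The gene lists extended the view to groups in which no single gene needed to pass. The lists were chosen with earlier results of these data known, so they are described by counts and medians with no test of the list. Of 39 functional lists, 17 held at least 1 called gene and 22 held none. Over all 11367 genes the median log2 fold change was 0.01, 51.3% were above vehicle and 48.7% below. The 12 list medians furthest from 0 ran from -0.40 for growth hormone patterned genes to 0.44 for glutathione transferases, and these signs were the same under quantile normalization and under scaling to a common 75th percentile.

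**Figure D4:**
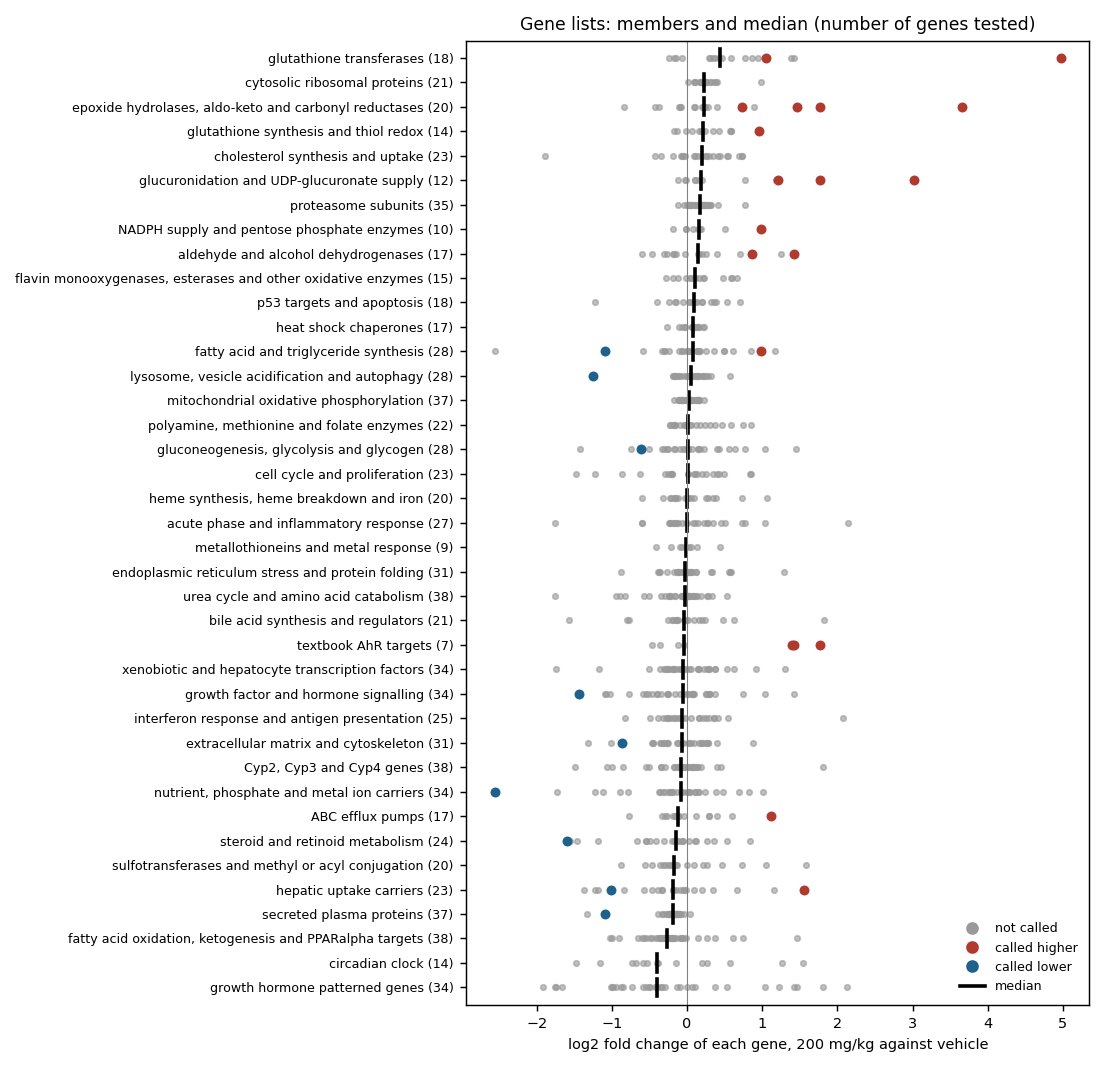
Log2 fold change at 200 mg/kg against vehicle (horizontal axis) of every gene tested in each of the 39 lists (rows, with the number of genes tested). Red and blue points are genes called higher and lower, grey points are not called, and the black bar is the list median. Called genes gather in the detoxification lists at the top, whose medians reach 0.44, while the lists at the bottom reach -0.40 with few or no called genes.

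All 21 cytosolic ribosomal protein genes tested were above vehicle, under both scalings too, with a median of 0.23. None was called, and 11 were higher at an unadjusted p under 0.05, where 6.14% of all genes were higher. *Rps24* stood at 0.39 (adjusted p = 0.10) and *Rpl35* at 0.36 (0.17). The median over the list was 0.40, 0.14 and 0.14 above the vehicle mean in treated rats 1, 2 and 3, and -0.07, 0.04 and 0.03 in vehicle rats. Without treated rat 1 the list median was 0.13 and 20 of the 21 were above vehicle. Proteasome subunit genes were above vehicle in 33 of 35 cases, with a median of 0.18. None of these passed, and 9 were higher without adjustment. *Psmb10*, a subunit of the immunoproteasome, stood at 0.77 (adjusted p = 0.065) and *Psme1*, a proteasome activator subunit, at 0.29 (0.25). By rat the proteasome median was 0.27, 0.17 and 0.05.

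Of 37 secreted plasma protein genes, 36 were below vehicle, 14 of them at an unadjusted p under 0.05, with a median of -0.19. By the same rule 5.08% of all genes were lower. Quantile normalization left 32 below and a median of -0.08. *Apoa4* was called, and *Fga* through its second probe set. *C6*, a complement component, stood at -1.32 (adjusted p = 0.29), *C8a* at -0.23 (0.35) and *Alb*, albumin, at -0.14. By rat the median was -0.26, -0.24 and -0.07. Acute phase and inflammatory genes showed no such tilt, with 13 of 27 above vehicle; *Cd14* stood at 0.73 (adjusted p = 0.19).

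Fatty acid oxidation, ketogenesis and PPARα target genes were below vehicle in 32 of 38 cases, with a median of -0.26 and no call. Without adjustment, 16 were lower and 1 was higher at p under 0.05, where 5.08% of all genes were lower and 6.14% higher. *Hadha*, the mitochondrial trifunctional protein alpha subunit, stood at -0.47 (adjusted p = 0.094), *Acadm* at -0.32 (0.19) and *Acadl* at -0.41 (0.20), all acting in beta-oxidation. *Angptl4*, a fasting-induced secreted protein gene, stood at -1.03 (0.15). *Cd36*, a fatty acid carrier gene that is also a PPARα target, stood at 1.46 (0.11), opposite to the list. By rat the list median was -0.27, -0.17 and -0.35, with vehicle rats between -0.04 and 0.05. In fatty acid and triglyceride synthesis, *Me1* rose, *Apoa4* fell, and *Scd*, the stearoyl-CoA desaturase, showed the lowest value of any list gene. *Scd* read 9.04, 9.10 and 9.75 in vehicle rats and 5.28, 7.22 and 7.69 in treated rats. Rat 1 was lowest by almost 2 log2 units, and the log2 fold change of -2.56 ± 0.48 did not pass (adjusted p = 0.056).

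Growth hormone patterned genes, which differ between male and female rat liver under the pulsatile or steady secretion of that hormone, had a median of -0.40 with 24 of 34 below vehicle. None was called. Without adjustment, 15 were lower and 4 higher at p under 0.05, where 5.08% of all genes were lower and 6.14% higher. *Oat*, ornithine aminotransferase, lay nearest to the threshold (adjusted p = 0.0504), at 10.81, 10.26 and 10.77 in vehicle rats and 7.89, 9.36 and 9.31 in treated rats (-1.76 ± 0.32). The male-predominant genes *Obp3* (-1.92, adjusted p = 0.12), *Car3* (-1.67, 0.14), *Cyp2c11* (-0.995, 0.26) and *Mup5* (-0.55, 0.11) were below vehicle, and the female-predominant *Cyp2c12* was above it (1.81, 0.23). These male-predominant genes were picked after their values were seen. The list, with 10 of 34 genes above vehicle, was not split into male- and female-predominant genes, so a pattern by sex was not tested. *Ghr*, the receptor itself, stood at -0.59 (0.076) and its target *Igf1* at -0.40 (0.17). By rat the list median was -0.34, -0.48 and -0.16, and without treated rat 2 it was -0.23.

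The circadian clock list had a median of -0.40 over 14 genes, 5 of them above vehicle, and no call. By rat the median was -0.20, -0.35 and -0.39, and it was -0.22 without treated rat 3. *Nr1d1*, a repressor of the clock, read 6.13, 6.39 and 5.26 in vehicle rats and 7.04, 7.75 and 7.63 in treated rats (1.54 ± 0.30, adjusted p = 0.065). *Npas2*, an activator that *Nr1d1* is known to repress, stood at -1.47 (0.14), *Cry1* at -1.16 (0.30) and *Dbp* at 1.26 (0.52). The sources used here do not give the time of day at which each rat was killed, and its part in these values was not tested.

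The list of textbook AhR targets drawn up here had 3 called of 7 tested, *Cyp1a2*, *Aldh1a1* and *Nqo1*. All 3 rose, where 0.211% of all genes were called higher. The text of the paper names aldehyde dehydrogenase among the AhR genes without the family member. The list held both *Aldh1a1* and *Aldh3a1*, so its count depends on that choice. *Cyp1a2* read 10.92, 10.77 and 11.62 in vehicle rats and 12.49, 12.34 and 12.66 in treated rats (1.40 ± 0.17, adjusted p = 0.0041). *Tiparp*, *Cyp1b1* and *Aldh3a1* stood at -0.12, -0.04 and -0.47, and *Nfe2l2*, which encodes Nrf2, at -0.36 (adjusted p = 0.40). *Ahr* stood at 1.30 ± 0.35 (0.19) and *Foxa3*, a hepatocyte transcription factor, at -1.17 (0.20).

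Of 38 Cyp2, Cyp3 and Cyp4 genes, 14 were above and 24 below vehicle, with *Cyp4a3* at -0.54 (adjusted p = 0.21). Bile acid genes numbered 8 above and 13 below, and *Cyp7a1*, the rate-limiting enzyme of bile acid synthesis, stood at 1.83 ± 0.57 (adjusted p = 0.28). Mitochondrial oxidative phosphorylation (22 of 37 above, median 0.02), heat shock chaperones (12 of 17, 0.08), endoplasmic reticulum stress and folding (14 of 31, -0.02) and urea cycle and amino acid catabolism (16 of 38, -0.03) lay close to the median of all genes. Cholesterol synthesis had 15 of 23 above and a median of 0.19 (0.12 without treated rat 3), with *Hsd17b7* at 0.53 (0.50) and *Fdft1* at 0.41 (0.52). No cell cycle gene passed even without adjustment, among 23 tested. Of 18 p53 and apoptosis genes, 3 were higher without adjustment, *Sesn1* at 0.53 (adjusted p = 0.41) and *Ccng1* at 0.32 (0.49) among them. By the same rule 6.14% of all genes were higher. In gluconeogenesis and glycolysis, *Ldha* fell while *Aldoa*, aldolase A, stood at 0.56 (0.074). Among polyamine and folate genes *Amd1*, which makes the aminopropyl donor of polyamines, stood at 0.58 (0.056). *Fmo5*, a flavin monooxygenase, stood at 0.67 (0.056).

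**Figure D5:**
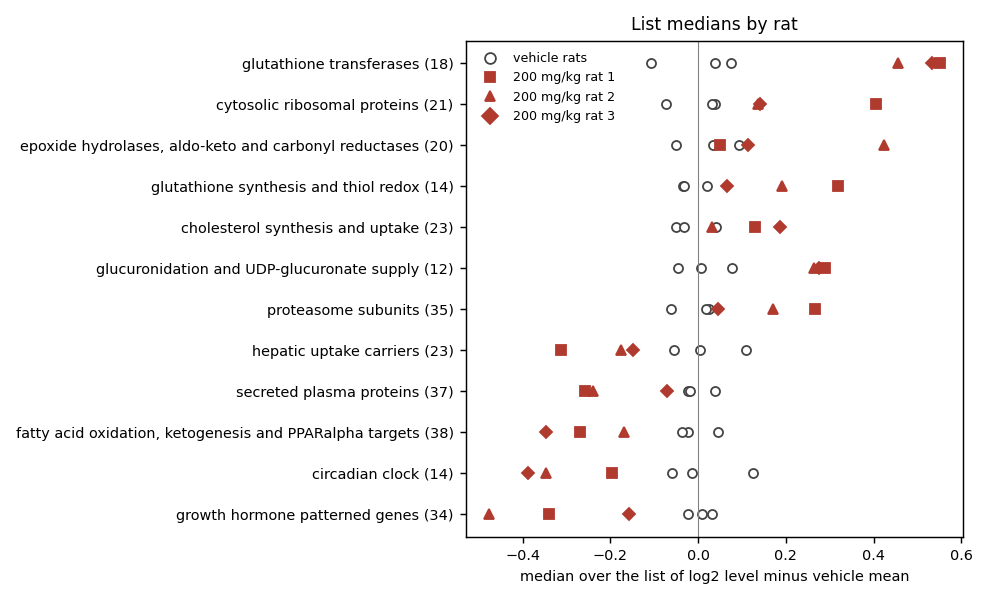
Median over the genes of a list of the log2 level minus the vehicle mean (horizontal axis), for each vehicle rat (open circles) and each rat at 200 mg/kg (red), in the 12 lists whose medians lay furthest from 0 (rows, with the number of genes tested). Glutathione transferases stood at 0.55, 0.46 and 0.53 in the 3 treated rats, whereas ribosomal genes stood at 0.40 in rat 1 and 0.14 in the others.

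Marker genes checked the tissue and its cell mixture. In bulk liver, fewer cells of a type and less RNA per cell cannot be told apart. The summed linear level of 7 hepatocyte markers was 32437 to 34787 in vehicle rats and 28067 to 32700 in treated rats, far above every other list. All 7 were below vehicle, with a median of -0.22 and no call. At an unadjusted p under 0.05, 3 were lower, with *Asgr1* at -0.22 and *Hnf4a* at -0.24, where 5.08% of all genes were lower. Quantile normalization placed 1 of the 7 above vehicle. Sums of Kupffer cell markers (1597 to 2129 against 1679 to 2318), endothelial markers (1262 to 1534 against 1252 to 1557) and stellate markers (1662 to 1928 against 1409 to 2239) overlapped between the groups. So did those of cholangiocyte (3 of 5 markers tested), lymphocyte (3 of 7), neutrophil (2 of 5), erythroid (3 of 5), exocrine pancreas (4 of 6) and adipose markers (1 of 4). No marker was called. With so few markers, overlap of these sums cannot show that those cells were unchanged. Among the defining markers, *Tf*, *Marco*, *Cdh5*, *Krt7* and *Mpo* were among those with no probe set of their own that had a value in all 6 arrays. The hepatocyte markers moved with the plasma protein list, which shares *Alb*, *Apoa1* and *Ttr* with them, and their part in that list's tilt was not tested.

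Probe sets empty in a whole group fall outside the comparison, since an empty value has no stated cause, and they were described only. Values were present in all 3 rats at 200 mg/kg and in no vehicle rat for 51 probe sets, and the reverse held for 74. Most were dim: all 3 values reached the 25th percentile of all values (log2 3.84) in 6 of the 51 and in 0 of the 74. The 6 were led by *Abcc3*, a pump that exports glucuronides across the basolateral membrane, at 7.77, 8.25 and 7.62 in treated rats, on average 16.5-fold above that percentile. *Cyp1a1*, the classic AhR target, read 10.41, 6.50 and 6.37, on average 15.1-fold above it and 6.04-fold without rat 1. At 100 mg/kg *Abcc3* had a value in 3 rats (4.91, 6.65 and 5.45) and *Cyp1a1* in 2 (4.58 and 4.07).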

How the data were processed

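Liver RNA of 12 rats was hybridized to 12 arrays. The authors deposited log10 values from the Rosetta Resolver software, 1 per probe set and array. The sources used here do not say how it corrected the background, scaled the arrays or came to empty values (12.1%). The base was read from the values, whose highest was 4.03. A second deposited table of signed folds and p-values holds the authors' own comparisons with vehicle and was not used.

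Values were converted to log2 without further normalization. Symbols came from the platform annotation, updated through the gene number in RefSeq (GRCr8) for 19627 of 19691 probe sets with 1 symbol; probe sets with several symbols (424) or none (9061) name no gene. Group means of all 12 arrays were fitted in 1 model with limma 3.58.1 (R 4.3.3), with a variance trend and Benjamini-Hochberg adjustment at 0.05, after a test on simulated data. The error model of the authors' software was not repeated here. Where a gene had several probe sets, the brightest stood for it in a list.

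The text names every called gene and the probe sets with values in 1 group only, all at or above the 25th percentile. Of the 2 genes with the smallest other p in each functional list, it names some and leaves out others. Further list genes were added after their values were seen. Lists, members and rules were chosen with earlier results of these data known. Replicates are separate rats; 3 per group limit the precision. The alternatives were other normalizations, a floor at the 25th percentile, leaving out dim probe sets and a replicate block. They also included other variance models, other thresholds, the t-test of the methods and leaving out each rat. The paper lists a t-test among its statistics but used the error model of Rosetta Resolver for its arrays. Other tissues and cells of the study were not analysed here. Figures were drawn with matplotlib 3.10.9.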

Additional observations from a re-analysis of the deposited data

Results flagged for a closer look

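Only probe sets outside the comparison were flagged, because they had a value in all 3 rats at 200 mg/kg, all at or above the 25th percentile of all values, and none in any vehicle rat. The folds set the mean at 200 mg/kg against that percentile, log2 3.84 (14.3 units). They are not folds over vehicle, since the vehicle values are empty for no stated cause, and no test was made. *Abcc3* was 16.5-fold above it. *Cyp1a1* was 15.1-fold above it with all 3 rats and 6.04-fold without rat 1, with 94.8, 6.31 and 5.78-fold in rats 1, 2 and 3. *Serpinb9b*, a serine protease inhibitor gene, was 7.79-fold above it, at 6.45, 8.31 and 5.64 (4.61-fold without rat 2), and had a value in 2 rats at 30 mg/kg and 1 at 100 mg/kg. *LOC102548586*, an uncharacterized locus, was 3.18-fold above it. *Ncaph*, a condensin subunit gene, was 2.5-fold above it, at 4.64, 5.22 and 5.62, with a value in all rats at 30 and 100 mg/kg too. A probe set without a symbol was 2.32-fold above it.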

How the results depend on the processing

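With 3 rats per group, the 95% interval of a log2 fold change, without adjustment for the number of probe sets, reached a median of 0.59 to either side. A call at an adjusted p under 0.05 needed a larger difference at the same spread. At least a doubling or halving was not called in 1332 probe sets. Of the 48 calls, 42 held under quantile normalization, 46 under scaling to a common 75th percentile, 48 with a filter on dim probe sets and 48 with array weights, but 20 held with the floor, 22 with only the groups compared in the fit, 5 without a variance trend and 0 by the adjusted t-test of the methods. None of the 48 called probe sets changed direction under the alternatives tried. The same held for 75 other genes, the 2 with the smallest p in each functional list, a choice that favours a stable sign. Other list genes named above did change sign with 1 rat left out, among them *Gstm7*, *Dcxr*, *Cyp1b1* and *Aldh3a1*. They were below vehicle in the main fit and reached 0.02, 0.09, 0.14 and 0.27 in such fits. The calls fell from 27 higher and 21 lower to 14 and 9 with the floor, 14 and 12 with only the groups compared in the fit, and 3 and 3 without a variance trend, and grew to 49 and 40 with array weights. At an adjusted p of 0.01 they were 11 and 5, and at 0.1 they were 56 and 54. The t-test of the methods gave 965 higher and 877 lower at p of at most 0.05, and 0 and 1 after Benjamini-Hochberg adjustment. Leaving out 1 rat gave 13 to 27 higher and 6 to 29 lower. The cause of these differences was not tested.

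Against 100 mg/kg, 0 calls became 4 with the floor, 1237 by the unadjusted t-test of the methods, and 0 to 4 with 1 rat left out. Against 30 mg/kg, 9 calls became 14 with quantile normalization, 2 with the floor, 17 with the dim filter, 0 without a variance trend, 5 with array weights, 5 with probe sets that had at least 1 value in each group, 3 and 24 at adjusted p of 0.01 and 0.1, 1415 by the t-test of the methods and 0 after its adjustment, and 3 to 14 with 1 rat left out. With the floor for empty groups at the 10th percentile, 14 probe sets in place of 6 had values at 200 mg/kg only, and 9 in place of 0 in vehicle only.

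The rat numbers did not pair the samples: deviations of same-numbered vehicle and treated rats correlated at -0.03 to 0.02, and those of other pairs at -0.05 to 0.03. With the replicate block, 26 probe sets were higher and 20 lower, 34 of the 48 calls were among them, and 3 were called against 30 mg/kg. Of 390 list medians recomputed, 35 moved by more than the spread between rats, and the 15 medians beyond 0.15 kept their sign.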

Other observations

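Further lists held no called gene, or none besides those named above, and are given as values on the log2 scale. Of 20 heme and iron genes, 10 were above and 10 below vehicle. *Tfrc*, the transferrin receptor, stood at 1.06 (adjusted p = 0.21) and *Hfe*, which controls hepcidin, at 0.73 (0.14). *Mt2A*, a metallothionein gene, stood at 0.44 (0.21) among 9 metal response genes with a median of -0.02. Sulfation and methylation genes were below vehicle in 13 of 20 cases, with *Sult1e1*, estrogen sulfotransferase, at -0.88 (0.19) and *Nat1* at -0.56 (0.17). *Gabarapl1*, an autophagosome protein gene, stood at 0.57 (0.19) and *Ctsd*, cathepsin D, at 0.25 (0.28). *Fn1*, fibronectin, stood at -0.32 (0.20) and *Mmp14*, a membrane metalloproteinase, at -0.47 (0.25). *Sesn2*, a stress-induced sestrin gene, stood at -0.87 (0.28). *Glul*, glutamine synthetase of the pericentral hepatocytes, stood at -0.82 (0.35). *Thrsp*, a lipogenic gene, stood at 1.17 (0.36). None of 25 interferon response and antigen presentation genes passed even without adjustment.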
